A study of Mus musculus with 6 samples.

Results

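The Hox genes encode homeodomain transcription factors that record position along the body axis, and their transcript levels were described in parvalbumin-positive sensory neurons, collected from mouse dorsal root ganglia of lumbar level 4. Members were all rows of the deposited expression table whose name is Hox, a cluster letter from a to d and a number. This gave 39 genes among 31469 rows, and no Hox name occurred on more than 1 row. This ganglion houses sensory neuron cell bodies, and parvalbumin marks mainly the proprioceptors there, which report muscle length and tension. RNA was sequenced from 3 wild-type libraries and from 3 libraries in which Dicer, the enzyme of microRNA maturation, was deleted through a Cre allele driven by Pvalb. All 6 libraries came from C57BL/6 mice at postnatal day 21. The labels name the control only as wild type, and whether control animals carried the Cre or a floxed allele was not given in the sources used here. Separate animals or pools per library are not named either, so the p-values below reflect nothing beyond the spread among these samples, which may be technical. The deletion is limited to cells in which the Pvalb promoter was active, and other cells in the ganglion keep Dicer.

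Mammalian Hox genes lie in 4 clusters, HoxA to HoxD, and genes at the same place in different clusters are numbered as paralog groups 1 to 13. Low numbers are switched on toward the head and high numbers toward the tail, a rule called collinearity. In the spinal cord and its ganglia this code is laid down in the embryo and is known to set the identity of motor and sensory neurons by level, with group 10 tied to the lumbar region and groups 11 to 13 to the sacral and tail region. The clusters also carry microRNA genes of the miR-10 and miR-196 families, whose known targets include Hox genes.

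In wild type the highest Hox levels of these neurons lay in paralog groups 7 to 10, and levels beyond group 10 were close to 0. Levels are given in TPM, a share of all transcripts that is scaled for transcript length and summed to 1000000 per library, so that genes can be compared. Of the 39 genes, 9 had a wild-type mean of at least 10 TPM, 12 had a mean of 1 to 10 TPM, 10 lay above 0 and under 1 TPM, and 8 were listed at 0 in every wild-type library. Hoxc10, a gene of the lumbar code, was highest at 28.4 ± 9.65 TPM (SD, n = 3), with 38.8, 26.8 and 19.7 TPM in the libraries. Hoxa7 followed at 25.2 ± 11.7 TPM, Hoxa10 at 22.4 ± 6.18 TPM, Hoxc8, known for brachial motor neuron pools, at 21.6 ± 4.07 TPM, and Hoxb9 at 20.2 ± 2.79 TPM. Hoxb7 had 17.6 ± 4.37 TPM, Hoxd9 17.3 ± 1.29 TPM, Hoxd8 13.03 ± 0.77 TPM and Hoxa9 12.5 ± 2.77 TPM. Every Hoxd9 library lay above every Hoxd8 library, and each other pair of neighbours in this order overlapped. Even Hoxc10 stood only at the 63.0th percentile of wild-type means among the 13787 rows that passed the low-value filter used below.

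The 9 genes of paralog groups 11 to 13 marked the end of the code. The highest value of any of them in any library was 0.64 TPM, for Hoxc13 in wild-type replicate 2, and 5 of the 9 were listed at 0 in all 6 libraries. At the head end, Hoxd1 was an exception to the low levels of groups 1 to 3, with 8.80, 7.53 and 6.61 TPM in wild type. The other genes of those groups had wild-type means from 0 for Hoxb1 to 1.83 TPM for Hoxb3. Paralogs of one number were unequal across clusters. In group 10, Hoxd10 had 2.21 ± 0.87 TPM beside the higher Hoxa10 and Hoxc10, and in group 9, Hoxc9 had 5.30 ± 1.96 TPM beside 12.5 to 20.2 TPM for the other members. In group 6, Hoxa6 was listed at 2.89, 0 and 0 TPM while Hoxb6 had 9.39 ± 1.201 TPM and Hoxc6 had 7.16 ± 1.74 TPM. Summed over genes, paralog groups 6 to 8 held 42.5 ± 3.42% and groups 9 to 10 held 44.3 ± 4.14% of the Hox TPM of a wild-type library (SD, n = 3).

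**Figure D1:**
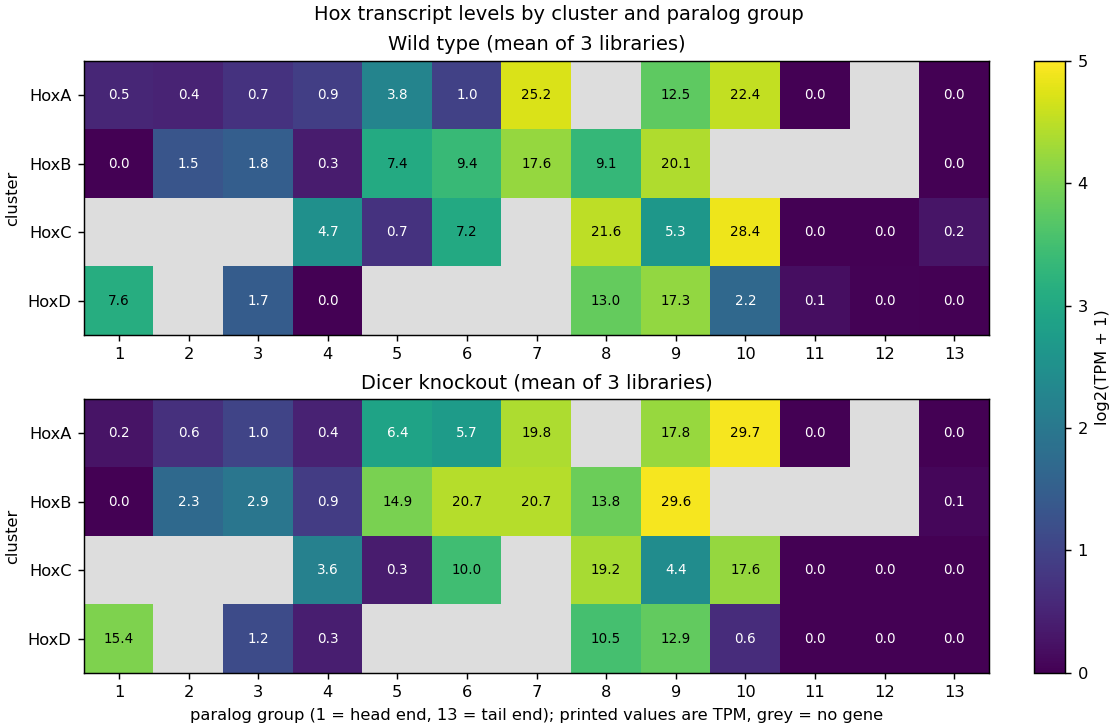
Mean transcript level of each of the 39 Hox genes in wild type (upper panel) and Dicer knockout (lower panel), 3 libraries each. Columns are paralog groups, rows are clusters, colour is log2(TPM + 1), printed values are TPM and grey marks places without a gene. The 9 genes with a wild-type mean of at least 10 TPM lie in groups 7 to 10, Hoxd1 is the high gene at the head end, and groups 11 to 13 lie near 0 in both panels.

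The 4 clusters lie on 4 chromosomes (GRCm38, the assembly that mm10 names). HoxA spans chromosome 6 from 52155590 to 52260880 with 11 genes, HoxB chromosome 11 from 96194316 to 96368256 with 10, HoxC chromosome 15 from 102921103 to 103036852 with 9, and HoxD chromosome 2 from 74668310 to 74765142 with 9. In wild type, HoxA, HoxB and HoxC each held a like share of the summed Hox TPM, at 27.5 ± 2.77%, 27.5 ± 0.93% and 27.8 ± 2.72%, and HoxD held 17.2 ± 0.87% (SD, n = 3). Gene models overlap within the clusters, and RSEM, the tool behind these values, shares reads between overlapping transcripts by a model. The annotated span of Hoxc5 covers Hoxc6, Hoxc8 and Hoxc9 and part of Hoxc10, that of Hoxa3 covers Hoxa4, Hoxa5 and Hoxa6, and antisense genes overlap others. The strand setting of the counting was not given in the sources used here, so sense and antisense reads cannot be told apart.

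Dicer makes mature microRNAs, so the microRNA genes inside the clusters and the matching sites in Hox transcripts are shown here. The 4 mature sequences with a seed of the miR-10 or miR-196 family, and miR-615-3p from the HoxC cluster, are from RefSeq on GRCm38.p6. Capitals mark the seed, bases 2 to 8 from the 5′ end.
mmu-miR-10a-5p (HoxB, chr11:96317186-96317208, plus strand): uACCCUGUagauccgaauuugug
mmu-miR-10b-5p (HoxD, chr2:74726074-74726096, plus strand): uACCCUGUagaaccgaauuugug
mmu-miR-196a-5p (HoxB, chr11:96265187-96265208, and HoxC, chr15:102973365-102973386, plus strand): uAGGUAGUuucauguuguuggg
mmu-miR-196b-5p (HoxA, chr6:52230129-52230150, minus strand): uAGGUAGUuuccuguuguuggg
mmu-miR-615-3p (HoxC, chr15:103014969-103014990, plus strand): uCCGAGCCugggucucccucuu
The pair within each family shares its seed. Mature microRNAs were not measured in these libraries. The rows of the microRNA genes Mir10a, Mir10b, Mir196a-1, Mir196a-2 and Mir615 were listed at 0 in all 6 libraries. Mir196b was listed at 5.21 TPM in wild-type replicate 1 and at 0 elsewhere.

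Sites were sought as exact matches to the complement of the seed on the transcript strand, in the longest annotated 3′ UTR of each gene (GENCODE vM21), and all 39 Hox genes had one. The miR-196 site, ACTACCT, occurred in 9 of the 39 UTRs (23.1%) and in 6 of the 22 UTRs of Hox genes that passed the low-value filter (27.3%), against 812 of 11525 tested genes (7.0%). The miR-10 site, ACAGGGT, occurred in 4 of 39 and in 2 of the 22 tested (9.1%, against 15.0% of tested genes). The let-7 site, CTACCTC, which overlaps that of miR-196 by 6 bases, occurred in 6 of 39 and in 1 of the 22 tested (4.5%, against 10.7%). The miR-615-3p site, GGCTCGG, occurred in 1 of 39, Hoxb4, and in 0 of the 22 tested (against 3.1%). UTR length was not matched in these shares, and a match is a sequence, not a measured binding site. Hoxa7 held 4 miR-196 matches and Hoxc8 held 2, while Hoxb7, Hoxa9, Hoxb6 and Hoxa5 held 1 each. The windows below are from Hoxb6 and Hoxd1, called higher in the comparison with knockout below, and from Hoxa7, which held the most miR-196 matches. Hoxb5, also called higher there, held no match to any of these seeds. Capitals mark the match, and the position of its first base is counted from the stop codon.
Hoxb6, miR-196, position 459: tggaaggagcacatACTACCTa
Hoxd1, miR-10, position 556: tagcggaacaaatccACAGGGTa
Hoxd1, let-7, position 492: ttaaagtggcgctcCTACCTCt
Hoxa7, miR-196, position 310: ggcacagccaaaatACTACCTa
Hoxa7, miR-196, position 347: agaggcactcccaaACTACCTa
Hoxa7, miR-196, position 479: aaaccatgatcaatACTACCTa
Hoxa7, miR-196, position 500: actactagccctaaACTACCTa
Hoxb8, known as a transcript that miR-196 directs to be cleaved, had no exact seed match and yet the longest complement. Its UTR pairs with miR-196a over all 22 bases, 21 as Watson-Crick pairs and 1 as a G:U pair at microRNA position 5 within the seed. The window covers bases 418 to 439 after the stop codon, and capitals mark Watson-Crick pairs.
Hoxb8, miR-196a complement: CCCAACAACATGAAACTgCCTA
The next gene by this measure was Hoxd8, with 15 Watson-Crick pairs of 22.

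The comparison with knockout asks how the Hox levels stand when Dicer is removed from these neurons. Hoxb5, Hoxb6 and Hoxd1 rose, with ratios of means of 2.02, 2.20 and 2.02, and no Hox gene was called lower. Most of the other tested HoxB and HoxA genes were higher in every knockout library without passing the test, Hoxd8, Hoxd9 and Hoxd10 were lower in every knockout library without passing it, and groups 11 to 13 were again near 0. Tests used limma on log2(TPM + 1) over the 13787 rows whose mean across the 6 libraries was 1 TPM or more, with Benjamini-Hochberg adjustment and a threshold of 0.05. Of the 39 Hox genes, 22 passed this filter and 17 did not, and 2 of the 22 passed through a single group, Hoxa6 through the knockout and Hoxd10 through the wild type. Among the 22, 3 were called higher (1.86% of all tested rows were) and 0 were called lower (3.17% of all tested rows were; 5.03% in either direction). At an unadjusted p under 0.05 the counts were 7 higher and 2 lower, where all rows gave 9.77% and 14.1%. The median log2 difference of the 22 was 0.42, beside -0.05 for all tested rows.

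Hoxb5, a HoxB gene known for roles in neural crest derivatives, was at 7.21, 7.27 and 7.63 TPM in wild type and at 15.7, 12.9 and 16.0 TPM in knockout. All 3 knockout libraries lay above all 3 wild-type libraries, and the wild-type spread was the narrowest of any tested Hox gene (coefficient of variation 3.1%). Its mean went from 7.37 ± 0.23 to 14.9 ± 1.71 TPM (SD, n = 3), which is 0.92 on the log2 scale (SE 0.19, adjusted p = 0.030 by limma; chromosome 11, 96303336 to 96306121, plus strand, ENSMUSG00000038700). Its neighbour Hoxb6, whose miR-196 match is printed above, was at 8.13, 9.53 and 10.5 TPM in wild type and at 15.7, 26.1 and 20.2 TPM in knockout. Knockout replicate 2 was the highest library, and the groups did not overlap. Hoxb6 rose from 9.39 ± 1.201 to 20.7 ± 5.22 TPM (SD, n = 3), by 1.04 on the log2 scale (SE 0.22, limma adjusted p = 0.033; chromosome 11, 96292476 to 96301569, plus strand, ENSMUSG00000000690). The antisense gene Hoxb5os overlaps both Hoxb5 and Hoxb6 in the annotation, so part of either value could be antisense reads, which was not tested.

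Hoxd1, which is known to take part in wiring nociceptive sensory neurons, was at 15.6, 17.4 and 13.2 TPM in knockout against the wild-type values given above. All 3 knockout libraries lay above all 3 wild-type libraries. Its mean went from 7.65 ± 1.10 to 15.4 ± 2.10 TPM (SD, n = 3), also 0.92 on the log2 scale (SE 0.20, adjusted p = 0.037 by limma; chromosome 2, 74762980 to 74765142, plus strand, ENSMUSG00000042448). No other annotated gene overlaps Hoxd1. It lies at the head end of HoxD, and its UTR holds the miR-10 and let-7 matches printed above.

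These 3 differences kept their direction under all 18 alternative settings. The call was lost under 10 of the 18 for Hoxb5, under 9 for Hoxb6 and under 9 for Hoxd1. The log2 difference ran from 0.87 to 1.01 for Hoxb5, from 0.86 to 1.21 for Hoxb6 and from 0.78 to 1.02 for Hoxd1, and the adjusted p from 0.017 to 0.156, from 0.026 to 0.125 and from 0.031 to 0.136. Without wild-type replicate 1, 2 Hox genes were called, Hoxd1 and Hoxa6. Without wild-type replicate 2 or 3, or any single knockout library, 0 were called, while the rows called higher over the whole table went from 256 to between 48 and 193. Replicate 3 of each group differed from replicates 1 and 2 in sex-linked transcripts, with Xist at 0.06 and 0 TPM and Ddx3y at 33.3 and 32.7 TPM. Within replicates 1 and 2 the log2 differences were 0.89 for Hoxb5, 1.12 for Hoxb6 and 0.94 for Hoxd1, and within replicate 3 they were 0.98, 0.88 and 0.90. With only the 4 libraries of replicates 1 and 2, 0 Hox genes were called.

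**Figure D2:**
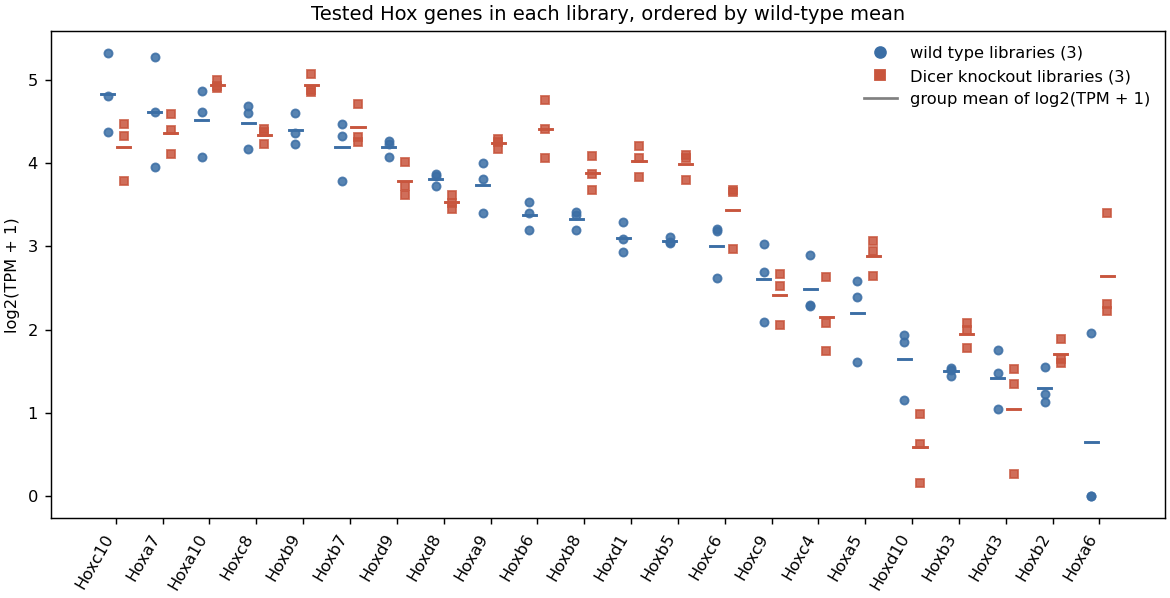
Level of the 22 tested Hox genes in each library as log2(TPM + 1), ordered by wild-type mean TPM, with wild-type libraries as circles, knockout libraries as squares and the group means of log2(TPM + 1) as bars. Hoxb5, Hoxb6 and Hoxd1 have all knockout squares above the wild-type circles, while Hoxa7 and Hoxc10 have widely spread circles and overlapping groups.

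Across the 22 genes, all 3 knockout libraries lay above all 3 wild-type libraries in 11 genes (11.8% of all tested rows) and below them in 3 genes (17.1% of all tested rows). With Hoxa6 and Hoxd10 set aside, which passed the filter through 1 group, 10 of 20 were higher and 2 were lower, where 11.8% and 16.9% of the rows with both group means at 1 TPM or more were. With libraries rescaled by median-of-ratios factors, the counts were 11 higher and 2 lower of 22, beside 14.2% and 14.9% of all rows, and Hoxd9 then overlapped.

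HoxB was the cluster with the most genes higher in knockout, and it also had more tested genes than any other cluster. Of its 7 tested genes, 7 had a positive difference, and the median was 0.54. Without overlap 6 were higher, where 11.8% of all tested rows were. The test called 2 higher, where 1.86% of all tested rows were. In HoxA 4 of 5 tested genes were higher without overlap, with a median of 0.50. Hoxb9 was at 19.5, 17.8 and 23.2 TPM in wild type and at 28.3, 27.8 and 32.6 TPM in knockout, a log2 difference of 0.54 that missed the threshold (adjusted p = 0.088). Hoxb8, with the long miR-196a complement, was at 9.67, 9.39 and 8.13 TPM and at 16.0, 11.8 and 13.6 TPM (0.55, adjusted p = 0.134). In both genes every knockout library was above every wild-type library. Toward the head end, Hoxb3, a gene of hindbrain patterning, was at 1.90, 1.86 and 1.73 TPM against 3.22, 2.42 and 3.0 TPM (0.45, adjusted p = 0.389). Hoxb2, also of the hindbrain, was at 1.19, 1.92 and 1.34 TPM against 2.04, 2.70 and 2.12 TPM (0.41, adjusted p = 0.475). Hoxb7 was the HoxB gene whose groups overlapped, at 19.0, 21.1 and 12.7 TPM against 18.1, 18.9 and 25.2 TPM (0.24, adjusted p = 0.560). Within replicate 3 its difference was 0.93, and within replicates 1 and 2 it was -0.11. It was 0.03 without wild-type replicate 3, 0.09 without knockout replicate 3 and 0.38 without wild-type replicate 2.

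HoxA had 5 tested genes, with a median of 0.50 and none called. Of these, 4 had a positive difference and non-overlapping groups, where 11.8% of all tested rows were higher without overlap. Hoxa6, counted among the 4, passed the filter through the knockout alone, so its direction is not free of the filter. Hoxa6 was at 2.89, 0 and 0 TPM in wild type and at 9.58, 3.93 and 3.67 TPM in knockout, a log2 difference of 1.99 (SE 0.58, adjusted p = 0.082). The value of 0 in 2 wild-type libraries can be a failed estimate, since Hoxa3 and antisense genes overlap Hoxa6. Without wild-type replicate 1 the difference was 2.64 and passed (adjusted p = 0.027). Hoxa5, known for patterning of the neck and thorax, was at 2.06, 4.98 and 4.24 TPM against 6.70, 5.27 and 7.34 TPM (0.69, adjusted p = 0.220). Hoxa9 was at 15.01, 12.96 and 9.53 TPM against 18.46, 18.01 and 16.98 TPM (0.50, adjusted p = 0.172). Hoxa10, of the lumbar group, was at 23.3, 15.8 and 28.0 TPM against 30.9, 29.4 and 28.8 TPM (0.43, adjusted p = 0.249), with wild-type replicate 3 just under the lowest knockout library. Leaving out 1 library took Hoxa5 to 0.40 (wild-type replicate 1), Hoxa9 to 0.33 (wild-type replicate 3) and Hoxa10 to 0.21 (wild-type replicate 2). Hoxa7, which held the most miR-196 matches, went the other way at 14.5, 37.7 and 23.3 TPM against 23.1, 20.02 and 16.23 TPM (-0.25, adjusted p = 0.668), and its sign rested on wild-type replicate 2, without which the difference was 0.09. Leaving out wild-type replicate 1 gave -0.58, and leaving out knockout replicate 3 gave -0.12.

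HoxC had no gene whose groups stood apart. Of its 5 tested genes, 1 had a positive and 4 had a negative difference, with a median of -0.19 and none called. Hoxc10, the highest gene in wild type, was at 12.77, 18.97 and 21.02 TPM in knockout, a log2 difference of -0.64 (SE 0.27, adjusted p = 0.191). Wild-type replicate 3 lay inside the knockout range, and within replicate 3 the difference was 0.09 while within replicates 1 and 2 it was -1.01. Hoxc8 was at 23.28, 16.99 and 24.62 TPM against 19.8, 20.3 and 17.7 TPM (-0.15, adjusted p = 0.670). Hoxc9, which is known to hold back limb-level identity in thoracic motor neurons, was at 3.27, 5.45 and 7.18 TPM against 4.76, 5.36 and 3.15 TPM (-0.19, adjusted p = 0.761), and without wild-type replicate 3 the difference was 0.02. Hoxc4 was at 3.90, 6.42 and 3.88 TPM against 5.18, 2.34 and 3.24 TPM (-0.34, adjusted p = 0.566). Hoxc6, of the brachial code, was at 8.26, 8.07 and 5.16 TPM against 6.82, 11.5 and 11.8 TPM (0.42, adjusted p = 0.393). These small differences moved with single libraries. Hoxc10 was at -0.40 without wild-type replicate 1, and Hoxc8 at -0.30 without wild-type replicate 2 and at -0.05 without wild-type replicate 3. Hoxc4 was at -0.14 without wild-type replicate 2, -0.13 without knockout replicate 2 and -0.58 without knockout replicate 1. Hoxc6 was at 0.23 without wild-type replicate 3 and at 0.65 without knockout replicate 1.

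In HoxD, Hoxd1 rose and the other 4 tested genes had negative differences. The 3 tested genes of groups 8 to 10 were lower with non-overlapping groups, none of them called, where 17.1% of all tested rows were lower without overlap. Of these 3, Hoxd10 passed the filter through the wild type alone, and Hoxd9 overlapped after median-of-ratios rescaling. Hoxd10, a gene of lumbar motor neurons, was at 2.81, 2.61 and 1.22 TPM in wild type and at 0.12, 0.98 and 0.55 TPM in knockout, a log2 difference of -1.05 (SE 0.41, adjusted p = 0.160). Hoxd9 was at 18.3, 17.7 and 15.8 TPM against 11.3, 12.3 and 15.1 TPM (-0.40, adjusted p = 0.218). Hoxd8 was at 13.6, 12.2 and 13.4 TPM against 11.3, 9.92 and 10.4 TPM (-0.28, adjusted p = 0.374). Hoxd3 was at 1.78, 1.06 and 2.38 TPM against 1.55, 0.20 and 1.89 TPM (-0.38, adjusted p = 0.645), and without knockout replicate 2 the difference was 0.02, without wild-type replicate 3 -0.21. The 5 HoxD genes had a median difference of -0.38, with 1 positive and 4 negative.

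**Figure D3:**
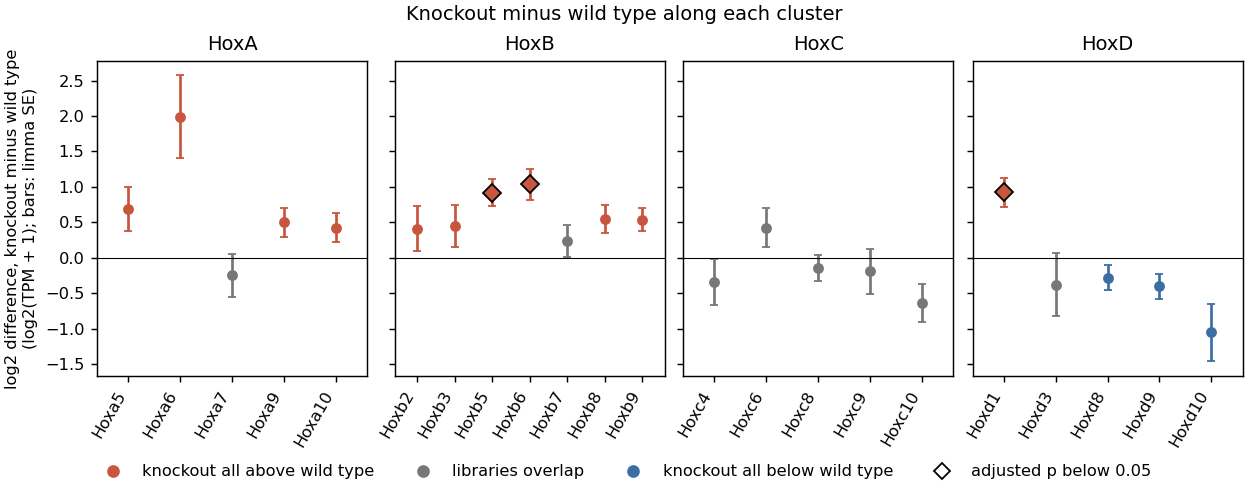
Log2 difference, knockout minus wild type on log2(TPM + 1), for the tested genes of each cluster ordered by paralog number, with limma standard errors as bars. Red marks genes with all knockout libraries above wild type, blue all below, grey overlapping groups, and diamonds adjusted p under 0.05. The 7 HoxB genes are all above 0 and the HoxD genes from Hoxd3 to Hoxd10 are all below it.

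The 17 genes under the filter stayed low in both groups. The highest value among them was 1.65 TPM, for Hoxa4 in wild-type replicate 1. Hoxd4, of the hindbrain and neck code, was listed at 0.11, 0.54 and 0.38 TPM in knockout and at 0 throughout wild type, and Hoxb4 was at 0.07, 0 and 0.84 TPM against 0.77, 0.85 and 0.95 TPM. These values are too low to be compared, since TPM keeps no sequencing depth and a value of 0 can be a failed estimate. Of the 17 genes, 6 were listed at 0 in all 6 libraries.

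Sums over the genes of a cluster show how far these differences add up. All Hox genes together had 233.5 to 251.5 TPM in the wild-type libraries and 281.6 to 287.1 TPM in the knockout libraries, with no overlap. HoxB went from 67.2 ± 1.46 to 105.7 ± 7.20 TPM (SD, n = 3 each), with 66.6, 68.9 and 66.1 TPM against 99.96, 103.5 and 113.8 TPM. HoxA had 61.3, 73.8 and 66.4 TPM against 91.9, 78.9 and 74.3 TPM, where wild-type replicate 2 and knockout replicate 3 nearly met. HoxC had 77.8, 65.0 and 61.6 TPM against 49.7, 58.4 and 57.4 TPM. HoxD had 45.7, 41.1 and 39.4 TPM against 39.97, 41.3 and 41.6 TPM and overlapped. After median-of-ratios rescaling HoxB still stood apart, at 61.6 to 67.7 TPM against 99.9 to 112.5 TPM, while HoxC overlapped, at 57.3 to 78.3 TPM against 49.7 to 62.5 TPM. As shares of the Hox total, which do not depend on library scaling, HoxB took 27.5 ± 0.93% in wild type and 37.3 ± 2.13% in knockout, HoxC 27.8 ± 2.72% and 19.5 ± 1.61%, and HoxD 17.2 ± 0.87% and 14.4 ± 0.22%, each without overlap between groups. The shares of HoxA overlapped, at 27.5 ± 2.77% and 28.8 ± 3.47%. Shares of one total trade off, so a larger HoxB share by itself lowers the shares of other clusters. Within HoxC, the mean of Hoxc10 went from 28.4 to 17.6 TPM with overlapping groups. With 3 libraries a group the smallest exact permutation p is 0.1, and the sums carry no test.

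**Figure D4:**
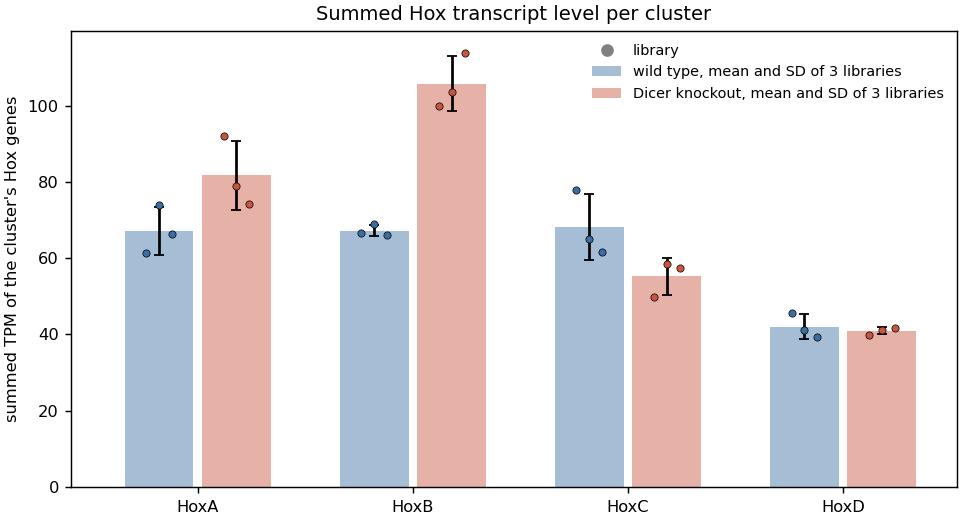
Summed TPM of the Hox genes of each cluster in each library, with bars for the group mean, error bars for the SD and points for the 3 libraries of each group. HoxB is at 66.1 to 68.9 TPM in wild type and 99.96 to 113.8 TPM in knockout, HoxC is lower in knockout in TPM as deposited, and HoxD overlaps.

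By paralog number, groups 1 to 3 took 5.82 ± 0.35% of the Hox total in wild type and 8.34 ± 0.84% in knockout, without overlap, and Hoxd1 is the largest member of that band. Groups 4 to 5 (7.26% and 9.45%), 6 to 8 (42.5% in both) and 9 to 10 (44.3% and 39.7%) overlapped between groups of libraries. The mean paralog number, weighted by TPM, was 7.74 ± 0.14 in wild type and 7.33 ± 0.08 in knockout, with libraries from 7.59 to 7.87 and from 7.26 to 7.41. The share of paralog group 10 that came from Hoxc10 and Hoxd10, the remainder being Hoxa10, was 64.1, 65.1 and 42.7% in wild type and 29.5, 40.4 and 42.9% in knockout, and overlapped through wild-type replicate 3.

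Genes with and without a miR-196 match in the UTR spanned overlapping ranges of the difference between knockout and wild type. Over all tested rows 1.86% were called higher, and 11.8% were higher and 17.1% lower without overlap. Of the 6 tested Hox genes with a match, 1 was called higher (Hoxb6), 3 were higher without overlap and 0 were lower without overlap. Their median log2 difference was 0.37, from -0.25 to 1.04. Of the 16 without a match, 2 were called higher (Hoxb5 and Hoxd1), 8 were higher and 3 lower without overlap, and the median was 0.42, from -1.05 to 1.99. Both ends of that range are genes that passed the filter through 1 group, Hoxd10 and Hoxa6. Without them the other 14 ran from -0.64 to 0.92, with 7 higher and 2 lower without overlap. Of rows with both group means at 1 TPM or more, 11.8% were higher and 16.9% lower without overlap. The genes with the most matches, Hoxa7 with 4 and Hoxc8 with 2, had differences of -0.25 and -0.15. Hoxb8 counts among the genes without a match because of its G:U pair. No test was made over these genes, and protein levels were not measured.

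**Figure D5:**
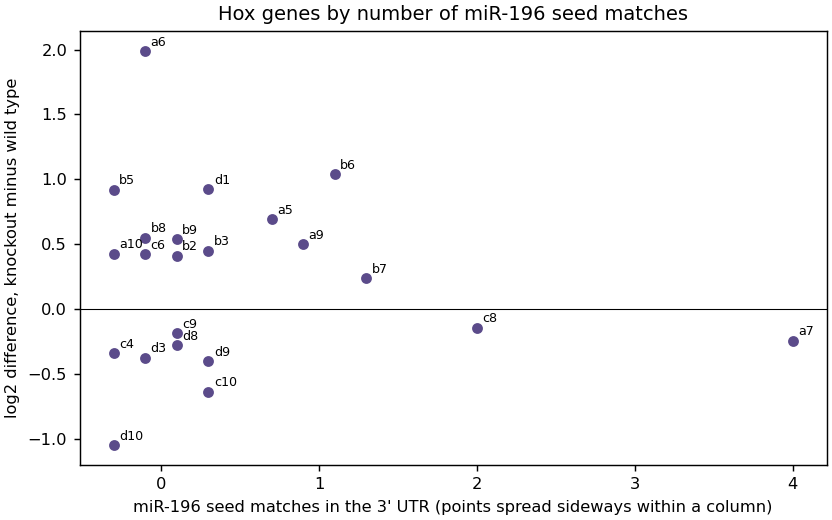
Log2 difference, knockout minus wild type, of the 22 tested Hox genes against the number of exact miR-196 seed matches in the longest annotated 3′ UTR, with labels giving cluster letter and paralog number. Genes without a match run from -1.05 (Hoxd10) to 1.99 (Hoxa6), both of which passed the filter through 1 group, and otherwise from -0.64 to 0.92, genes with 1 match lie between 0.24 and 1.04, and Hoxc8 and Hoxa7 with 2 and 4 matches lie just below 0.

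Hox proteins bind DNA together with TALE homeodomain cofactors of the Pbx, Meis and Pknox families. Of 11 listed TALE genes, with Tgif1 and Tgif2 counted beside these families, 10 were tested. Among the 10, 1 was called higher and 1 lower, with a median of -0.01. Of all tested rows 1.86% were called higher and 3.17% lower. Pknox2, a cofactor gene related to Meis, rose from 18.7 ± 3.54 to 35.9 ± 7.48 TPM (SD, n = 3 each), with 21.6, 14.8 and 19.8 TPM against 43.8, 35.1 and 28.9 TPM (log2 difference 0.90, SE 0.20, limma adjusted p = 0.041). Tgif1, which encodes a TALE repressor, was at 3.53, 4.56 and 2.65 TPM against 0.16, 0.96 and 0.36 TPM (-1.63, SE 0.37, adjusted p = 0.041), and passed the filter through the wild type alone, so its call is not free of the filter. In both, the groups did not overlap. Pknox2 was called under 10 of 18 alternatives (adjusted p from 0.030 to 0.145 by limma), and lost its call without wild-type replicate 2 (0.093) or 3 (0.091) or knockout replicate 1 (0.145) or 2 (0.118). Tgif1 was called under 4 of the 17 alternatives in which it was tested (adjusted p from 0.028 to 0.136), and lost its call without any single library.

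Genes that act upstream of the Hox code were mostly low. Of 20 regulators, among them the Cdx genes and the retinoic acid pathway, 11 were tested and 0 were called, with a median of 0.05. Cdx2 and Cdx4, which open the clusters in the embryo, were listed at 0 in every library, and the highest member was the retinoic acid enzyme Aldh1a1 at 10.6 ± 5.84 and 11.4 ± 4.99 TPM. Gdf11, a secreted factor of axial patterning that was picked out after its values were seen, was at 8.97, 8.6 and 13.2 TPM against 4.39, 1.69 and 6.58 TPM (-1.21, adjusted p = 0.098). Its difference was -0.67 with the satellite glia covariate and -0.79 without knockout replicate 2. Polycomb genes, which keep Hox genes silent, had 27 tested of 28 found and 0 called, with a median of -0.10 and Rbbp7 highest at 138.2 ± 20.3 and 103.1 ± 5.82 TPM. A list of trithorax genes, which keep Hox genes active, with histone demethylases of both active and repressive marks and the insulator gene Ctcf had 15 tested and 1 called, Rbbp5, a core subunit of the histone H3 methyltransferase complexes. Of all tested rows 3.17% were called lower. Rbbp5 fell from 52.0 ± 7.04 to 28.5 ± 3.52 TPM (-0.84, SE 0.16, adjusted p = 0.023, limma). It was called under 12 of 18 alternatives (adjusted p from 0.017 to 0.103), and lost its call without wild-type replicate 2 (0.064) or 3 (0.079) or knockout replicate 1 (0.075) or 2 (0.076). Genes listed from the regions around the clusters had 14 tested of 17 found and 0 called, with a median of -0.15. Atp5g3 was highest at 1607 ± 116.0 and 1359 ± 101.4 TPM. Not all of these genes adjoin a cluster, and Lnp and Evx2 lie between Atp5g3 (chromosome 2, 73908447 to 73911326) and HoxD. Of 11 noncoding genes found inside the clusters 2 were tested and 0 were called. The row named Mira was left out, since that name has no position in the annotation. Gm53, a noncoding gene next to Mir196a-1 in HoxB (chromosome 11, 96251105 to 96264868, plus strand), was at 12.7, 26.2 and 22.6 TPM against 20.7, 5.50 and 15.9 TPM, and the antisense gene Hoxd3os1 was at 4.67 ± 2.31 and 4.54 ± 2.47 TPM.

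Library checks and cell markers stand beside these results as follows. The libraries had 13237 to 13960 rows at 1 TPM or more. Dicer1 was at 36.7, 26.0 and 48.7 TPM in wild type and at 24.0, 20.8 and 21.8 TPM in knockout (-0.68, SE 0.22, adjusted p = 0.104), a whole-gene value that cannot show how complete the deletion was. Proprioceptor markers were present in all libraries. Of 9 tested, 6 were called lower in knockout (3.17% of all tested rows were), Pvalb, Runx3, Etv1, Spp1, Heg1 and Nxph1. This list was fixed with earlier results of these data known, so its count is not independent of them. Of 13 tested transcription factors of sensory neurons 2 were called lower (3.17% of all tested rows were), again Runx3 and Etv1. Of 8 pan-neuronal markers 1 was called higher, Rbfox3 (1.86% of all tested rows were). Satellite glia markers summed to 832.1 to 1850 TPM in wild type and 440.1 to 973.3 TPM in knockout. Of these 12 markers 2 were called lower, Fabp7 and Gja1, where 3.17% of all tested rows were. Glul went the other way in every knockout library without being called (148.7 ± 48.4 and 226.5 ± 16.8 TPM), and the remaining markers overlapped. With the mean log2 level of the 12 satellite glia markers as a covariate 0 Hox genes were called, and the differences of Hoxb5, Hoxb6 and Hoxd1 were 1.01, 1.0 and 0.78. The 6 Schwann cell markers used summed to 447.2 to 525.0 TPM against 1036 to 1389 TPM, nearly all of it Pmp22 (480.1 ± 39.4 and 1223 ± 178.1 TPM), which was called higher. Mbp, the other tested gene, was lower in every knockout library without being called. Their part in the Hox differences was not tested. Fibroblast markers (23.3 to 46.0 TPM against 28.3 to 51.3 TPM, Dcn highest) and endothelial and mural markers (14.4 to 21.4 TPM against 19.5 to 30.9 TPM, Egfl7 highest, Cldn5 at 0) overlapped. Macrophage markers were at 6.02 to 8.76 TPM against 3.45 to 5.37 TPM, with Lyz2 highest and C1qa at 0. Markers of spinal cord and brain neurons were at 0.64 to 1.40 TPM against 0.75 to 1.36 TPM, with Mnx1 and Lhx1 at 0. By group mean Slc5a7 was highest in wild type and Chat in knockout. In such bulk libraries a change in the cells collected and a change of RNA per cell cannot be told apart.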

How the data were processed

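The authors deposited 1 table of TPM values for 6 libraries, with replicates not pooled. RSEM 1.2.7, Bowtie2 and cutadapt are listed per the submitters' processing notes, with mm10 as the build, and the annotation was not given in the sources used here. Per the labels' protocols, RNA was isolated with a PicoPure kit, and cDNA was amplified before library construction, which adds noise for rare transcripts. TPM keeps no depth, so no counting interval was computed.

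Under R 4.3.3, limma 3.58.1 was run with a trend on log2(TPM + 1), two-sided, genotype as the only term, over all 13787 rows averaging 1 TPM or more. Differences on this scale understate changes of low genes. UTRs and coordinates came from GENCODE vM21, and microRNA sequences from RefSeq, searched with Python 3.11.15. The fit was tested on simulated data. The 18 alternatives covered scaling, pseudocount (0.1 and 0.5), filter, summed rows, replicate block, sex-linked transcripts, glial markers, library weights and leaving out each library. Every Hox name was a named gene, those with a mean of at least 1 TPM with all values; of each other list, called members or else the highest were named. Members and lists were chosen with earlier results of these data known. A marker of the Schwann cell list is not reported here and was left out of that list's sum.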

Additional observations from a re-analysis of the deposited data

How the results depend on the processing

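The count of Hox genes called higher was 3 in the reported fit. It was 0 with no filter on low values, with the libraries with Xist above 1 TPM only and with the satellite glia covariate, and it ran from 0 to 2 when 1 library was left out. No alternative called a Hox gene lower. Of 389 values of single genes under the alternatives, 351 kept their sign and their side of the threshold, 28 kept the sign and lost the call (all for Hoxb5, Hoxb6 and Hoxd1), 3 gained one and 7 changed sign. The gains were Hoxa6 with the replicate block and without wild-type replicate 1, and Hoxb9 with quantile normalization (0.60, adjusted p = 0.046, limma). The changes of sign were Hoxa7 without wild-type replicate 2 (0.09), Hoxb7, Hoxc8 and Hoxc9 in the libraries with Xist above 1 TPM only (-0.11, 0.01 and 0.21), Hoxc9 without wild-type replicate 3 (0.02), Hoxd3 with the glia covariate (0.17) and Hoxd3 without knockout replicate 2 (0.02). The cause was not tested. When 1 library was left out, Hoxa7 ran from -0.58 to 0.09, Hoxc9 from -0.44 to 0.02 and Hoxd3 from -0.62 to 0.02.

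Libraries with the same replicate number deviated together only weakly, with correlations of 0.05, 0.07 and 0.04 across rows, and wild-type replicate 3 correlated best with knockout replicate 1 (0.07), so the numbers were not taken to pair the libraries. With the replicate block 2 Hox genes were called, Hoxb6 (adjusted p = 0.037, limma) and Hoxa6 (0.029), and Hoxb5 and Hoxd1 were at 0.056 and 0.055. The median difference of all tested rows was -0.05, and 0.01 after median-of-ratios rescaling, and neither that nor quantile normalization changed the sign of a tested Hox gene. With a pseudocount of 0.1 Hoxa6 was at 4.09, Hoxd10 at -2.02, Hoxd3 at -0.82 and Tgif1 at -2.84. With the glia covariate Hoxa10 was at 0.69, Hoxa7 at -0.56, Hoxb2 at 0.24, Hoxb7 at 0.10, Hoxc6 at 0.24 and Hoxc8 at -0.01. TPM values carry no depth, and genes listed at 0 cannot be ranked. Leaving out a library leaves 2 in its group. For Pknox2, Tgif1, Rbbp5 and Gdf11, which are not Hox genes, applying the alternatives was chosen after seeing the data, and none changed their signs.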
